A study of Mus musculus with 5 samples.

Results

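The genes described here encode the ligands, receptors, SMAD proteins, extracellular antagonists and Id target genes of TGF-β, activin and BMP signalling, measured in sorted pancreatic islet cells of the mouse. They were chosen by gene symbol, from probe sets that carry a single symbol, and numbered 59 of 19938 genes on the arrays. Each of the 59 had 1 such probe set. A probe set for Gdf1 was also annotated to Cers1 and was left out. Not every SMAD or GDF gene was analysed here. Most genes were matched on the start of the symbol, so the set also holds Bmp1, a protease, Bmp2k, a kinase, and Tgfb1i1 and Tgfbrap1, adaptor proteins, which match by name and are given apart from the pathway's own parts.

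The cells came from untreated C57BL/6 mice of 8 to 12 weeks that were heterozygous for Flattop (given as FVR/+), a genotype that both fractions shared. They were separated by flow cytometry into cells positive for Flattop (3 arrays) and cells negative for it (2 arrays). Each array held RNA of 1 pool from 4 to 6 mice whose sex was not determined, and the labels name no gate that would keep β-cells alone. Since the study is about mature and proliferative β-cells, by its title, the comparison asks whether the pathway's genes differed between the fractions.

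Ligands of this superfamily are secreted dimers that bring together type II and type I receptor kinases. The type I receptor then phosphorylates a receptor SMAD, Smad2 for TGF-β and activin and Smad1, Smad5 or Smad9 for BMPs, which enters the nucleus with Smad4. Smad6 and Smad7 inhibit the pathway, antagonists such as follistatin and noggin bind ligands outside the cell, and the Id genes are direct targets of BMP signalling. In the islet the pathway is known for roles in the formation of endocrine cells, in insulin secretion and in restraining β-cell replication.

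Signals are log2 RMA values of 1 probe set per gene, so a difference of 1 is a doubling, and levels of different genes are not set against each other. As a floor for each array, the 95th percentile of 1027 olfactory receptor genes was 4.29 to 4.45 in the Flattop-positive replicates and higher, 4.75 and 4.86, in the Flattop-negative ones. The gene that encodes Flattop, Cfap126, had 6.07, 6.07 and 6.24 in the Flattop-positive replicates 1 to 3 and 5.52 and 5.44 in the Flattop-negative replicates 1 and 2, without overlap (limma adjusted p = 0.274). The endocrine markers Ins2, Iapp and Gcg were above 12 on every array. The mean of 10 β-cell markers was 10.23 to 10.38 in the Flattop-positive replicates, against 9.24 and 9.29 in the others. In bulk pools such as these, fewer cells of a type and less RNA per cell cannot be told apart.

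Few genes of the pathway differed between the fractions by more than the spread of the arrays. In limma's test over all genes 0 of the 59 genes passed an adjusted p of 0.05, as did 0% of all genes; 6 of the 59 and 2760 of all genes had an unadjusted p under 0.05. With Flattop-negative replicate 2 left out, 434 of all genes passed the adjusted p and 0 of the 59 did. At the weaker rule used for counts below, 1.5-fold or more together with p under 0.05 before adjustment, 1 gene was higher in the Flattop-positive arrays (Bmp1), where 8.08% of all genes were, and 2 were lower (Bmp8a and Bmp8b), where 3.74% of all genes were. Over all genes 1610 were called higher and 746 lower, a split that became 2409 and 213 with each array centred on its median and 898 and 508 after cyclic loess. The number called was thus no larger than the background. Of the 59, 43 had a negative log2 difference and 16 a positive one, with a median of -0.24. Over all genes 11801 of 19938 differences were negative, with a median of -0.10. Of the 1027 olfactory receptor genes 937 were negative, with a median of -0.27. The groups did not overlap for 2 genes that were higher and 16 that were lower in the Flattop-positive arrays, against 13.7% and 21.0% of all genes. Of the 1027 olfactory receptor genes, 8 were higher and 432 lower without overlap, and 0 were called higher and 65 lower. Dim genes as a class thus leaned towards lower values in the Flattop-positive arrays. Just outside the rule lay Grem1 (-0.58 ± 0.23 (SE)), Gdf5 (-0.54 ± 0.20 (SE)) and Tgfbr3 (-0.50 ± 0.19 (SE)), which reached the unadjusted threshold and not 1.5-fold.

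**Figure D1:**
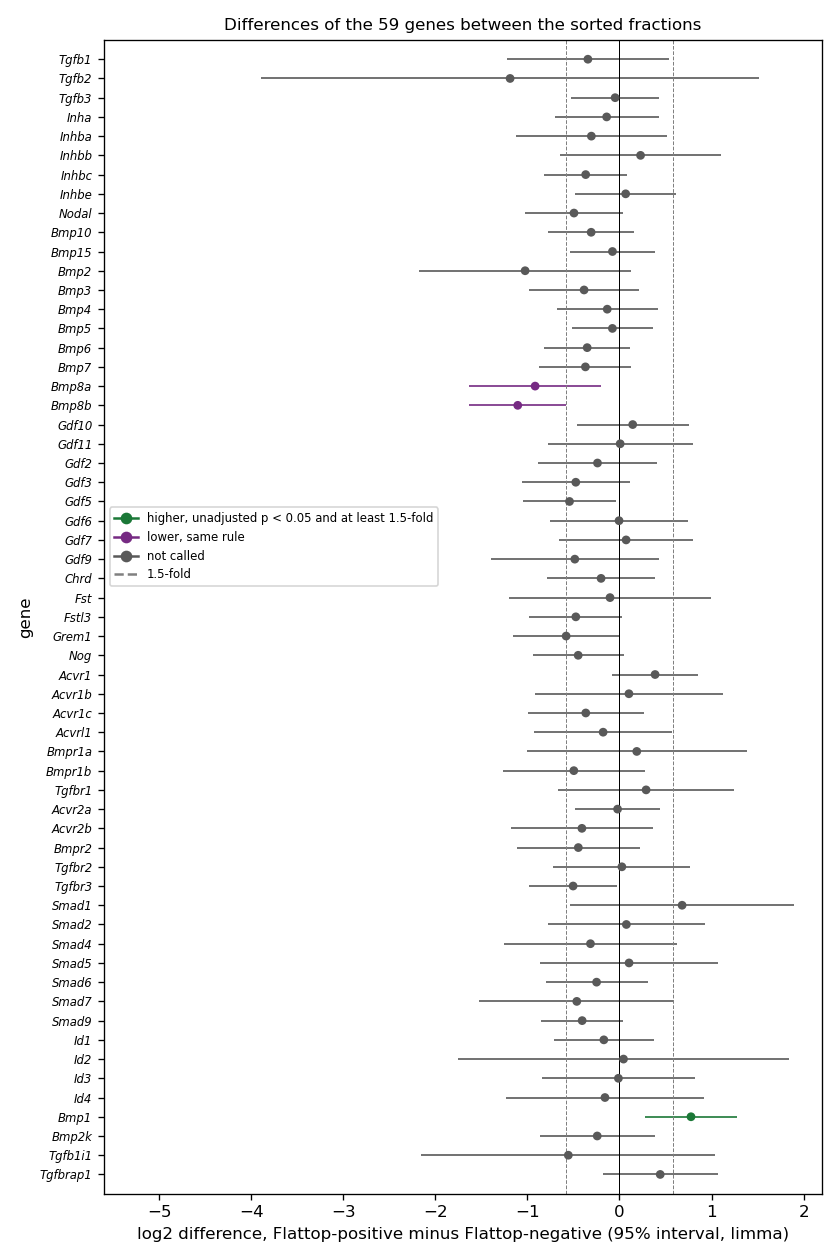
Log2 difference between Flattop-positive and Flattop-negative arrays for the 59 genes, in order of role, with the 95% interval from limma; the dashed lines mark 1.5-fold. Bmp8a and Bmp8b (purple) lie to the left and Bmp1 (green) to the right, and most intervals of the other genes include 0.

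The counts hung on the 2 Flattop-negative arrays. Without Flattop-negative replicate 1, 4 of the 59 genes were called higher, where 12.2% of all genes were, and 10 lower, where 11.0% were. Without Flattop-negative replicate 2, 2 were called higher and 2 lower, against 12.6% and 11.0% of all genes. In each case the remaining array was taken to vary like the other group. Bmp1 and Bmp8b were called both times. Not called with all 5 arrays but called without replicate 1 were Smad2, Tgfbr1 and Tgfbrap1 as higher and Acvr2b, Fstl3, Gdf5, Gdf9, Grem1, Nodal, Smad4 and Tgfb1 as lower; without replicate 2 they were Smad1 (1.4997) as higher and Bmpr1b (-0.96) as lower. The median difference of the 59 genes was -0.40 without the first and -0.09 without the second. Between the 2 Flattop-negative arrays, 45 of the 59 genes were higher on replicate 2 and 14 on replicate 1, and 11 differed by at least 1 log2 unit. Over all 19938 genes, 10866 were higher on replicate 2, 9003 were higher on replicate 1, and 4248 differed by at least 1 log2 unit. The direction of 12 genes named below, none of them called, changed with the scaling of the arrays: Acvr2a, Bmp4, Bmpr1a, Fst, Id1, Id2, Id3, Id4, Smad2, Smad6, Tgfb3 and Tgfbr1.

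The BMP and GDF ligands were the largest group, with 18 genes. Of these, 8 lay under the floor on all 5 arrays, 2 lay above it on all 5, Bmp6 and Bmp8a, and 8 did so on some. The 2 genes called lower were Bmp8b and Bmp8a, closely related genes on chromosome 4. Their products are known from the germ line and, for Bmp8b, from brown fat. Bmp8b had signals of 4.46, 4.29 and 4.71 on the Flattop-positive arrays and 5.62 and 5.55 on the Flattop-negative arrays. All 3 Flattop-positive values were below both Flattop-negative ones, and 1 of them, in replicate 2, was under its floor. The difference was -1.10 ± 0.21 (SE), 2.15-fold higher in the Flattop-negative arrays, with a limma adjusted p of 0.208 over all genes, and it ran from -1.22 to -1.01 as each array was left out. Since that value is under the floor, the size of the fold is uncertain.

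Bmp8a had 4.53, 4.72 and 4.56 on the Flattop-positive arrays, within 0.19 of one another, and 5.12 and 5.92 on the Flattop-negative arrays. The groups did not overlap, but the Flattop-negative arrays were 0.80 apart. The difference was -0.92 ± 0.29 (SE) (limma adjusted p = 0.293). Without Flattop-negative replicate 2 it was -0.52, under 1.5-fold, and without replicate 1 it was -1.32; the unadjusted threshold was also missed without Flattop-positive replicate 1 (-0.88) or 3 (-0.89). Both genes kept their direction and their call after each of 3 other scalings of the arrays. Whether probes of these related genes pick up each other's transcripts was not tested.

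Both of these related genes were called lower, and the 250 bases before the start site of each are shown. They are from RefSeq (GRCm38.p6), 5′ to 3′ on the gene's strand, with Tgfb2, described below, added for its spread between pools. The search was for CAGAC, a short sequence that SMAD proteins bind, GGCGCC, a GC-rich form bound by BMP SMADs, and CACGTG, an E-box, on both strands; matches are in capitals.
Bmp8b, chr4:123104911-123105160, plus strand: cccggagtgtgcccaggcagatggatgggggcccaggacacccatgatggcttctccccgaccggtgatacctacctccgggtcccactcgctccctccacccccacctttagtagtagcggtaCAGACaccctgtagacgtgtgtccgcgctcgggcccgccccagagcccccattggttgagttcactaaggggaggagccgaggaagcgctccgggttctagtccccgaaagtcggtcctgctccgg
Bmp8a, chr4:123343253-123343502, minus strand: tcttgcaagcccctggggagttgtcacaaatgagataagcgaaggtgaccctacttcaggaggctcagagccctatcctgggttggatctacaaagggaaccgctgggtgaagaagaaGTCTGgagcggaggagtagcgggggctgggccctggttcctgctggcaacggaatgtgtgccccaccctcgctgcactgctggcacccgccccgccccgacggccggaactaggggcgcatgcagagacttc
Tgfb2, chr1:186705990-186706239, minus strand: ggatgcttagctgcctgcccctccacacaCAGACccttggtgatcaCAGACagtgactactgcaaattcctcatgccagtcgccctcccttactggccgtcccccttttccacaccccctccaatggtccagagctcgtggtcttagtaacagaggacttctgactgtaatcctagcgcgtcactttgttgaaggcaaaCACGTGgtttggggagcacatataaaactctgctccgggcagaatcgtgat

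The window of Bmp8b held CAGAC on the gene's strand, beginning at position -126 from the start site, and that of Bmp8a held it on the other strand, at -132. The window of Tgfb2 held it at -221 and -204 and CACGTG at -51. GGCGCC was in none of the 3. CAGAC is common: it lay in 42.2% of 32851 windows of this length and in 41.7% of the 48 windows that 41 of the 59 genes had in the table. CACGTG lay in 6.02% of all windows and 8.33% of these. GGCGCC lay in 9.59% and 22.9%, while the median GC content was 52.4% and 65.6%. The arrays bear on transcript levels alone, and a match is a description of the letters.

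Among the other BMP and GDF ligands, Bmp2 had the widest difference, -1.02 ± 0.46 (SE), with 3.70, 3.57 and 4.80 on the Flattop-positive and 4.67 and 5.44 on the Flattop-negative arrays. Its groups overlapped, because Flattop-positive replicate 3 lay above Flattop-negative replicate 1. Bmp2 met the rule for a call without Flattop-positive replicate 3 (-1.41), with the replicate block (-1.41) and with a variance trend (-1.02). Bmp4, a ligand known to act on β-cells through Bmpr1a, had 3.68, 4.03 and 4.05 against 3.92 and 4.19 and was under the floor throughout. Bmp7 had 4.45, 4.59 and 4.33 against 4.70 and 4.95, values close to the floor of each array that did not overlap (-0.37 ± 0.20 (SE)). Gdf11, which acts through activin receptors, had 4.995, 4.769 and 4.873 on the Flattop-positive arrays, all above the floor. Its Flattop-negative values were 4.41 and 5.34, on either side of these, and the difference was 0.01 (95% interval -0.78 to 0.79). Gdf5 (3.30, 3.61 and 3.60 against 3.96 and 4.13) and Gdf3 were lower without overlap from levels under the floor on all 5 arrays, where differences cannot be read as expression.

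**Figure D2:**
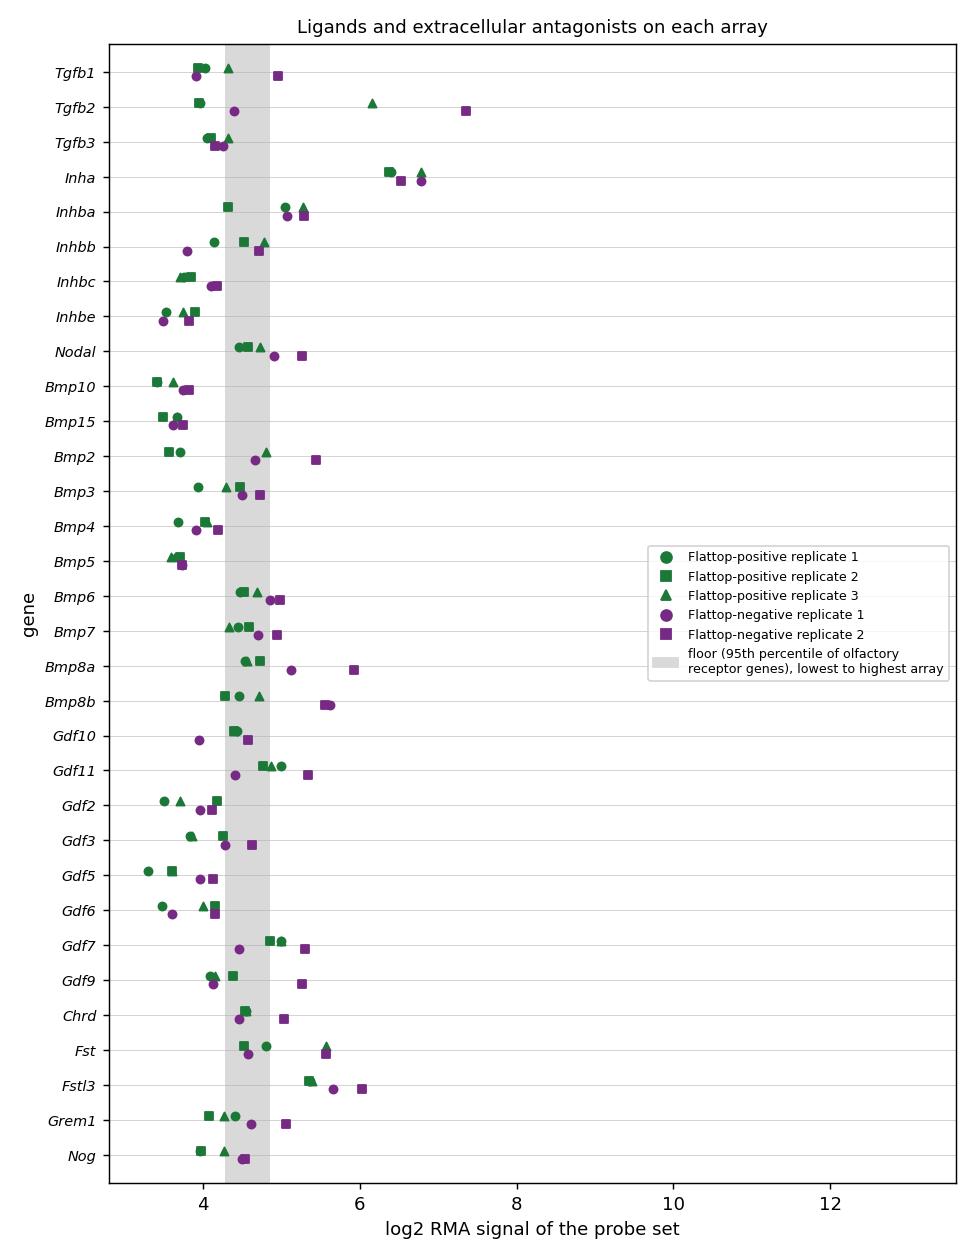
Log2 signal of the ligands and extracellular antagonists on each of the 5 arrays, with the grey band spanning the floor of the arrays. Most ligands sit in or to the left of the band, Inha and Fstl3 lie to its right on every array, and Tgfb2 is spread from 3.95 to 7.36.

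Activins are dimers of the inhibin β subunits, and inhibins, which oppose them, pair a β subunit with the product of Inha. Inha was clearly above the floor, with 6.39, 6.37 and 6.78 on the Flattop-positive and 6.78 and 6.52 on the Flattop-negative arrays. The groups overlapped and differed by -0.14 (95% interval -0.71 to 0.43). Inhba, the subunit of activin A, had 5.05, 4.32 and 5.27 against 5.08 and 5.29, with Flattop-positive replicate 2 alone at the floor (-0.31 ± 0.33 (SE)). Inhbb, the subunit of activin B, had 4.15, 4.52 and 4.78 against 3.79 and 4.71; both Flattop-negative values were under their floors, and the difference of 0.23 ± 0.35 (SE) was -0.23 without Flattop-negative replicate 1. Inhbc and Inhbe were under the floor on all arrays. Nodal, a ligand of early development, had 4.46, 4.58 and 4.73 against 4.91 and 5.26, each above the floor of its array; it was lower in the Flattop-positive arrays without overlap but was not called (-0.49 ± 0.21 (SE); -0.67 and called without Flattop-negative replicate 1).

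None of the 3 TGF-β ligands was called. Tgfb1 had 4.02, 3.94 and 4.32 on the Flattop-positive arrays and 3.92 and 4.96 on the Flattop-negative arrays, so that it passed the floor on Flattop-negative replicate 2 alone. Its difference of -0.34 ± 0.35 (SE) became -0.86, a call, with Flattop-negative replicate 1 left out and 0.18 with replicate 2 left out. Tgfb3 had 4.05, 4.11 and 4.32 against 4.25 and 4.16, all under the floor. Tgfb2 had 3.96, 3.95 and 6.16 against 4.40 and 7.36. It was at or under the floor on 3 arrays and high on 1 array of each group, Flattop-positive replicate 3 and Flattop-negative replicate 2. The difference of -1.19 ± 1.08 (SE) therefore had a 95% interval of -3.90 to 1.52, and leaving out Flattop-negative replicate 2 gave 0.29 and leaving out replicate 1 -2.67.

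Type I receptors for all 3 kinds of ligand were above the floor on every array, while the TGF-β type II receptor Tgfbr2 was so on 3 arrays. None of the 11 type I and type II receptor genes was called. Of the 7 type I receptors, 4 were above the floor on all arrays: Acvr1 and Bmpr1a, which serve BMPs, Acvr1b (ALK4), which serves activin, and Tgfbr1 (ALK5), which serves TGF-β. Bmpr1a had 7.98, 7.55 and 7.06 on the Flattop-positive and 8.01 and 6.67 on the Flattop-negative arrays. The Flattop-negative values enclosed the others, and the difference of 0.19 ± 0.48 (SE) became 0.86 when Flattop-negative replicate 1 was left out and -0.48 when replicate 2 was. Tgfbr1 had 7.03, 7.23 and 7.21 against 7.49 and 6.25, again with the Flattop-negative pair on either side (0.29 ± 0.38 (SE)). Leaving out Flattop-negative replicate 1 gave 0.91, which met the rule, and leaving out replicate 2 gave -0.33. Acvr1b had 5.95, 5.67 and 5.06 against 4.95 and 5.96 and a difference of 0.10 (95% interval -0.92 to 1.13). Acvr1, with 5.94, 5.80 and 5.98 against 5.61 and 5.43, was the single receptor that was higher in the Flattop-positive arrays without overlap, by 0.39 ± 0.19 (SE), and it was not called (limma adjusted p = 0.420).

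The other type I receptors were near or under the floor. Acvr1c (ALK7), known as a receptor for activin B and Nodal in islets, had 4.74, 4.89 and 4.32 against 5.18 and 4.85. It lay above the floor on 2 of 3 Flattop-positive and 1 of 2 Flattop-negative arrays, and its groups overlapped (-0.37 ± 0.25 (SE)). Acvrl1 (ALK1), a receptor of endothelial cells, had 4.51, 4.81 and 5.11 against 4.65 and 5.32. Bmpr1b was under the floor on all arrays.

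Among type II receptors, Acvr2a, shared by activins and several BMPs, had close values on all arrays, 7.15, 7.14 and 7.12 against 7.27 and 7.04. Its difference was -0.02 with a 95% interval of -0.48 to 0.44, and it was -0.29 after repeated quantile normalisation, -0.37 after cyclic loess and 0.16 with arrays centred. Bmpr2, the BMP type II receptor, had 6.74, 6.83 and 7.40 against 7.34 and 7.53; Flattop-positive replicate 3 overlapped the Flattop-negative pair, and the difference was -0.45 ± 0.27 (SE). It met the rule without Flattop-positive replicate 3 (-0.65) and after cyclic loess (-0.80). Acvr2b had 4.80, 5.02 and 4.99 against 4.89 and 5.80, a difference of -0.41 ± 0.31 (SE) that became -0.86 when Flattop-negative replicate 1 was left out and 0.04 when replicate 2 was. Tgfbr2, the TGF-β type II receptor, had 4.65, 4.40 and 4.76 against 4.18 and 4.98, values close to the floor that overlapped. The co-receptor Tgfbr3 (betaglycan), which presents TGF-β2 and inhibin, had 5.91, 5.62 and 5.69 against 6.22 and 6.26; it was above the floor throughout and lower in all 3 Flattop-positive arrays, by 1.42-fold (limma adjusted p = 0.344). Tgfbr3 met the rule for a call in 2 of the 3 other scalings, repeated quantile normalisation (-0.66) and cyclic loess (-0.62).

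**Figure D3:**
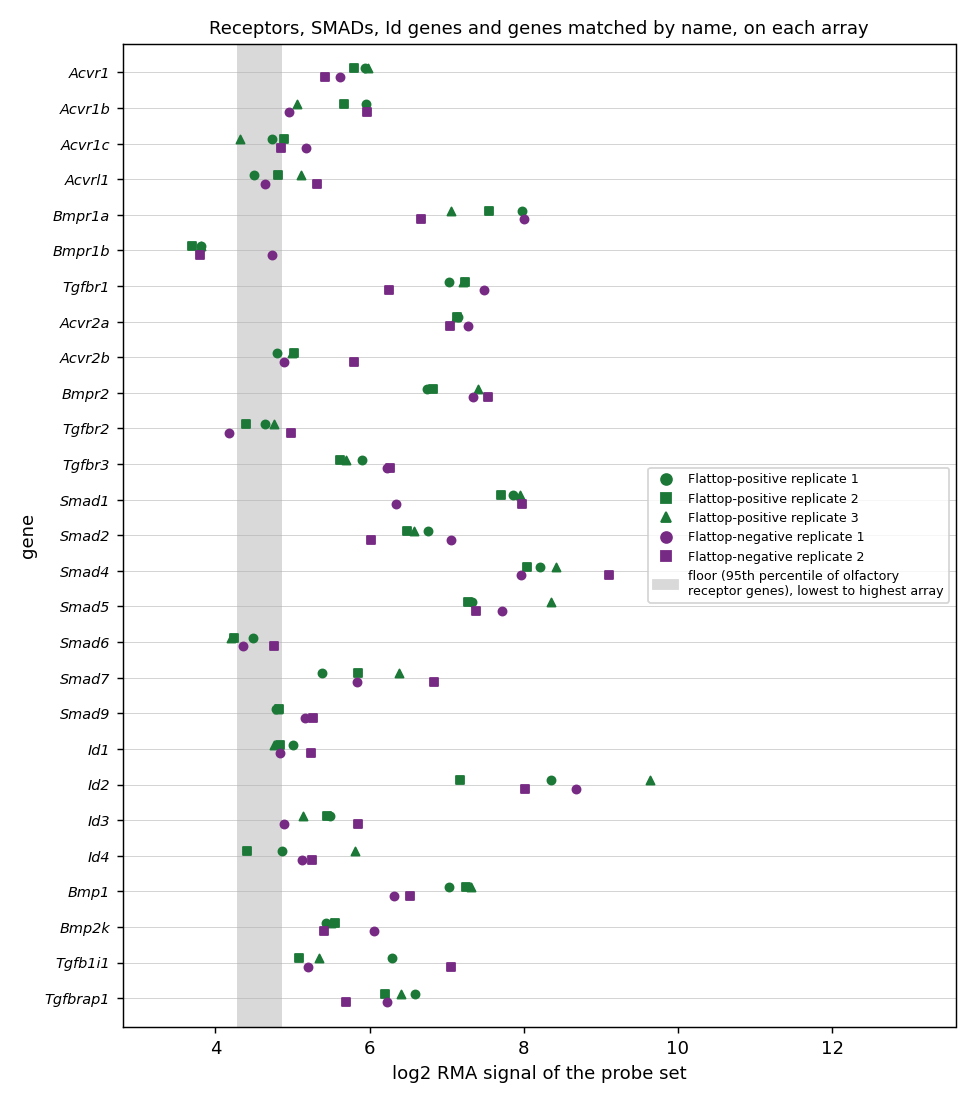
Log2 signal of receptors, SMADs, Id genes and genes matched by name on each of the 5 arrays, with the grey band spanning the floor of the arrays. Acvr2a values lie close together, those of Bmpr1a, Smad4 and Id2 are widely spread within a group, and the 3 Flattop-positive values of Bmp1 lie to the right of both Flattop-negative ones.

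Of the 7 SMAD genes measured, 6 were above the floor on every array and none was called. Smad2, of the TGF-β and activin branch, had 6.76, 6.49 and 6.58 on the Flattop-positive and 7.05 and 6.01 on the Flattop-negative arrays. The Flattop-positive values lay between the Flattop-negative ones, and the difference was 0.07 (95% interval -0.78 to 0.93). It became 0.59, just past the rule, with Flattop-negative replicate 1 left out and -0.44 with replicate 2 left out. Smad4, the partner of all receptor SMADs, had 8.21, 8.04 and 8.42 against 7.96 and 9.11, a difference of -0.32 ± 0.37 (SE) that became -0.89 with Flattop-negative replicate 1 left out and 0.26 with replicate 2 left out. In the BMP branch, Smad1 had 7.86, 7.70 and 7.96 against 6.34 and 7.98, so that Flattop-negative replicate 1 alone stood apart (0.68 ± 0.49 (SE); -0.14 without it). Smad5 had 7.32, 7.28 and 8.36 against 7.72 and 7.38, with the highest value on Flattop-positive replicate 3. Smad9 (SMAD8) had 4.78, 4.83 and 4.81 against 5.16 and 5.27, lower in the Flattop-positive arrays without overlap but not called (-0.41 ± 0.18 (SE)).

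The inhibitory SMADs are induced by the pathway they oppose. Smad7, which blocks both branches, had 5.39, 5.85 and 6.38 against 5.83 and 6.84. Its higher values were on Flattop-positive replicate 3 and Flattop-negative replicate 2, and the difference of -0.46 ± 0.42 (SE) was 0.04 without the latter. Smad6, which blocks BMP signals, had 4.49, 4.24 and 4.21 against 4.36 and 4.76; it passed the floor on 1 array, Flattop-positive replicate 1.

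The 5 extracellular antagonists all had negative differences, with a median of -0.45, and none was called. Fst (follistatin), which binds activins, had 4.80, 4.52 and 5.57 against 4.57 and 5.57, and the groups overlapped (-0.10 ± 0.44 (SE); -0.60 without Flattop-negative replicate 1 and 0.40 without replicate 2). Fstl3, a follistatin-like protein, had 5.36, 5.35 and 5.39 on the Flattop-positive arrays and 5.66 and 6.03 on the Flattop-negative arrays. It was above the floor throughout and lower in the Flattop-positive arrays without overlap, by -0.47 ± 0.20 (SE) (limma adjusted p = 0.382), and by -0.66 without Flattop-negative replicate 1. Grem1 (gremlin), which binds BMPs, had 4.41, 4.08 and 4.27 against 4.61 and 5.05, without overlap and above the floor on 1 array of each group; leaving out Flattop-negative replicate 1 gave -0.80 and leaving out replicate 2 gave -0.36. Nog (noggin) was under the floor on all arrays, and Chrd (chordin) had 4.55, 4.54 and 4.55 against 4.46 and 5.04. Floors differed between the groups by about as much as these dim genes did.

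The Id genes, which report BMP signalling, overlapped between the fractions, and none was called. Id1 had 5.01, 4.84 and 4.76 against 4.84 and 5.24, a difference of -0.17 (95% interval -0.71 to 0.37). Id3 had 5.49, 5.45 and 5.14 against 4.88 and 5.85, a difference of -0.01 (95% interval -0.84 to 0.82). These intervals allow a difference of more than 1.5-fold, so equal levels are not shown. Id2, an inhibitor of basic helix-loop-helix factors, had 8.36, 7.17 and 9.63 against 8.67 and 8.01. Its highest and its lowest value were both on Flattop-positive arrays, replicates 3 and 2, and the difference of 0.04 ± 0.72 (SE) was -0.58 without replicate 3 and 0.65 without replicate 2. Id4 had 4.87, 4.41 and 5.81 against 5.12 and 5.26, also with the extremes on Flattop-positive replicates 2 and 3.

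Of the genes that match by name, Bmp1 was the 1 gene called higher. It encodes a secreted metalloprotease of the astacin family that trims procollagens and cleaves chordin, which frees BMPs. Its signals were 7.03, 7.25 and 7.31 on the Flattop-positive arrays and 6.31 and 6.53 on the Flattop-negative arrays, all well above the floor. Every Flattop-positive value exceeded both others. The means were 7.20 ± 0.15 (SD, n = 3) and 6.42 ± 0.15 (SD, n = 2), a difference of 0.78 ± 0.20 (SE) or 1.71-fold, which did not pass over all genes (limma adjusted p = 0.253). It ran from 0.67 to 0.89 as each array was left out. After cyclic loess it was 0.47 and on repeated quantile normalisation 0.51, both under 1.5-fold. With arrays centred on their medians it was 0.95 and still called, so the call depended on the scaling. Tgfb1i1 (Hic-5), a focal adhesion protein of mesenchymal cells, had 6.29, 5.08 and 5.34 against 5.21 and 7.05, highest on 1 array of each group. Tgfbrap1 and Bmp2k had 0.44 ± 0.25 (SE) and -0.24 ± 0.25 (SE), with overlap.

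Of 82 further genes of the pathway, 2 were called higher and 2 lower, and 0 passed over all genes in limma; the background shares are those given above. Both genes called higher encode ubiquitin ligases that act on SMADs. Stub1 (CHIP) had 8.35, 8.22 and 8.20 against 6.66 and 7.58, a difference of 1.14 ± 0.31 (SE) with limma adjusted p = 0.262. Wwp2 had 7.13, 6.98 and 6.75 against 5.59 and 6.48, a difference of 0.92 ± 0.32 (SE) with limma adjusted p = 0.317. For both, the Flattop-negative arrays lay apart: leaving out replicate 1 gave 0.68 for Stub1 and 0.48 for Wwp2, which was no longer 1.5-fold, and leaving out replicate 2 gave 1.60 for Stub1 and 1.37 for Wwp2. The genes called lower encode matrix proteins that hold TGF-β, Ltbp1 (3.71, 3.80 and 4.15 against 4.80 and 4.56) and Dcn, decorin (3.85, 3.84 and 3.93 against 4.21 and 4.97). Both were under the floor on every array but 1 Flattop-negative array each, and the Dcn difference was -0.34 without Flattop-negative replicate 2. By type, the 38 extracellular and membrane regulators had a median difference of -0.29, the 33 intracellular regulators 0.02 and the 11 targets -0.29.

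Some genes of the pathway differed more between pools of one group than between the groups. Tgfb2 was, of the 59 genes, the only one at least 1 log2 unit higher both on Flattop-positive replicate 3 than on replicates 1 and 2 and on Flattop-negative replicate 2 than on replicate 1. This pattern was chosen after the values were seen and is given without a test. Of the 82 further genes 5 had it, 6.10%, and 0.978% of all genes did. They were Tgif1, a repressor of SMAD transcription, Thbs1, a matrix protein that activates latent TGF-β, and the target genes Klf10, Junb and Hamp. Tgif1 had 4.79, 4.58 and 8.21 on the Flattop-positive and 4.77 and 8.51 on the Flattop-negative arrays. Its 2 high values stood more than 3 log2 units above the other 3, which lay near the floor. Thbs1 had 4.75, 4.61 and 6.25 against 5.41 and 7.69, and Hamp, the hepcidin gene that BMP signals switch on in liver, had 5.92, 6.58 and 8.34 against 6.92 and 9.94. Klf10 and Junb are also immediate early genes; Junb had 7.11, 6.48 and 8.95 against 5.92 and 8.57. For none of the 6 genes was the difference between the groups called.

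**Figure D4:**
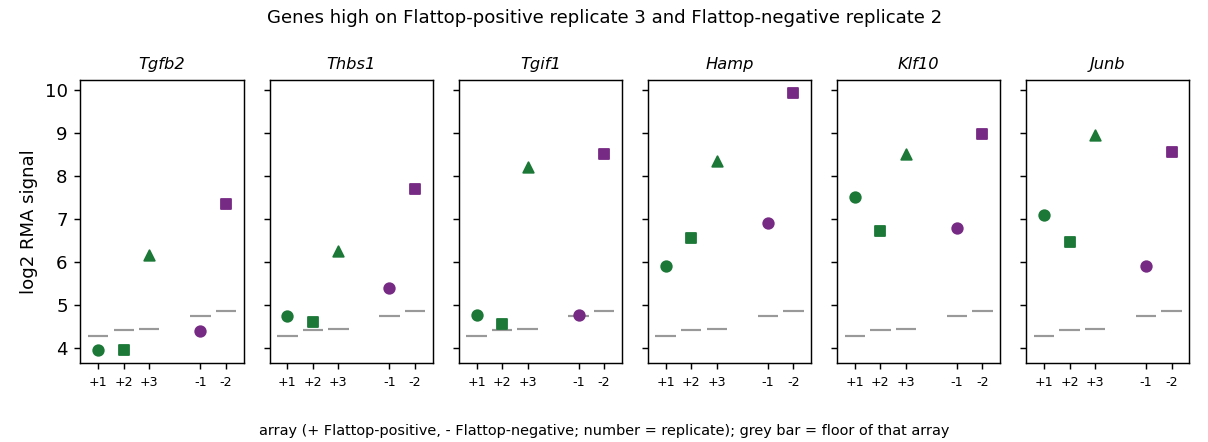
Log2 signal of Tgfb2 and of 5 further genes of the pathway on each array, with a grey bar at the floor of that array. In each panel Flattop-positive replicate 3 and Flattop-negative replicate 2 are higher than the other arrays of their group.

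Markers of other cell types also differed between the arrays. The mean of 10 stellate, fibroblast and mesenchymal markers was 4.19 to 4.41 on the Flattop-positive arrays and 4.40 and 5.14 on the Flattop-negative arrays. All 10 had a negative difference, but so did 937 of the 1027 olfactory receptor genes that set the floor. Dcn was called lower, and Pdgfra, Pdgfrb, Des and Lum were under the floor on every array. The mean of this list lay under the floor of its array on every array except Flattop-negative replicate 2. Above the floor were 4 to 5 of the 10 on the Flattop-positive arrays, 3 on Flattop-negative replicate 1 and 6 on replicate 2. The mean of 7 endothelial markers was 3.65 to 3.74 against 3.90 and 4.26, with 0 of 7 above the floor except on Flattop-negative replicate 2, where Pecam1 and Flt1 were; Flt1 was called lower in the Flattop-positive arrays. The mean of 8 immune markers was 4.60 to 4.86 against 4.52 and 5.74, and Lyz2, the macrophage lysozyme gene, was at 9.41 on Flattop-negative replicate 2 and at most 4.58 elsewhere; 7 of the 8 had a negative difference. Of the complement genes on that list, C1qc was called lower and C1qa higher in the Flattop-positive arrays. The mean of 7 acinar markers was 4.18 to 4.44 against 4.63 and 5.58. The mean of 5 α-cell markers was 8.20 to 8.26 against 8.32 and 9.12, with Smarca1 (-1.87) and Gria3 (-1.03) called lower. Gcg (-0.28) and Irx2 (-0.36) overlapped and were not called. Ttr went the other way (1.16), also with overlap and not called, and was lowest on Flattop-negative replicate 1 (9.69). The mean of 4 duct markers was 5.58 to 6.08 against 4.93 and 5.94, with Krt7 (1.85) called higher. The others on that list were not called: Sox9 went the other way (-0.74), Krt19 had 0.10, and Cftr (0.04) was under the floor on every array. The mean of 3 δ- and PP-cell markers was 9.68 to 10.16 against 6.99 and 10.86. Sst, which marks δ-cells, was at 8.08 on Flattop-negative replicate 1 and above 12 on the other arrays. Tgfb1, Tgfb2, Smad4 and Tgfb1i1 had their highest values on Flattop-negative replicate 2, but so did many others of the 59, among them Bmp8a, Fstl3 and Nodal. Of the 59 genes, 45 were higher there than on Flattop-negative replicate 1. The floor (4.86) and the median of all genes (5.23) were also highest on that array. So were the means of the mesenchymal, immune, acinar, endothelial, α-cell and δ- and PP-cell lists. The part of those cells in the values of the 59 genes was not tested.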

How the data were processed

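Per the labels, total RNA of each pool was extracted with the miRNeasy Micro kit, amplified by the Ovation PicoSL WTA V2 system and biotin-labelled. The authors deposited log2 signals per probe set, and the submitters' processing notes name RMA and version 1.3.0.187 of Affymetrix Expression Console; background and array differences are thus already corrected, and low signals are compressed. Of 35556 probe sets, 21789 carried 1 symbol; the one with the highest mean was kept per gene, giving 19938 genes. The arrays' number limits the precision.

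The fit used limma (version 3.58.1, under R 4.3.3) with group as the only term, moderated variances and Benjamini-Hochberg adjustment over all genes; intervals are 95% intervals of that fit. With 3 arrays against 2, the smallest one-sided p of an exact permutation test is 0.1. Where nothing says that pools are independent, p-values measure only the spread between these arrays.

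The members and lists were chosen with earlier results of these data known. Named with values on every array were the called genes and a list of receptors, ligands, SMADs and Id genes; Acvr1, Acvrl1, Bmp2, Chrd, Fstl3, Gdf5, Grem1, Inha, Nodal, Smad1, Smad5, Smad9, Tgfb1i1, Tgfbr3, Lyz2, C1qa, C1qc, Flt1, Smarca1, Gria3, Krt7 and Sst, and the genes of the pattern between pools, were added after their values were seen. Alternatives tried were a replicate block, leaving out each array in turn, 3 other scalings, dim genes left out, probe sets averaged, a variance trend, array weights and 2 other thresholds. Upstream sequences are RefSeq's (GRCm38.p6). The arrays' genome build: not given in the sources used here. Other software was pandas 2.3.3 and, for figures, matplotlib 3.10.9.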

Additional observations from a re-analysis of the deposited data

How the results depend on the processing

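The median difference of the 59 genes was negative in each alternative run, from -0.40 to -0.09 with arrays left out, -0.12 on repeated quantile normalisation, -0.06 with arrays centred on their medians and -0.11 after cyclic loess; over all genes it was -0.01, 0.07 and 0.00 in these 3 scalings. Of the 59 genes, those called higher numbered 0 with the replicate block, after quantile normalisation and with cyclic loess, against 1 (Bmp1), and 1 to 4 with arrays left out. Those called lower, 2 in the report, numbered 4 after cyclic loess, 1 at an unadjusted p of 0.01, 5 with no minimum fold, 3 with the replicate block and 1 to 10 with arrays left out. Of the 82 further genes, called higher were 1 on quantile normalisation, 5 with arrays centred, 1 after cyclic loess, 0 at the stricter p and 1 to 9 with arrays left out; called lower were 3 with the replicate block or no minimum fold, 1 with arrays centred, 4 after cyclic loess, 0 with dim genes left out or at the stricter p, and 0 to 13 with arrays left out. Over all 19938 genes, 1610 were called higher and 746 lower in the fit reported above. With the replicate block these numbers were 1391 and 384, and after quantile normalisation 1025 and 480. They were 2409 and 213 with arrays centred and 898 and 508 after cyclic loess. With a Flattop-positive array left out they ran from 930 to 1537 and from 268 to 629. With dim genes left out they were 1389 and 222 of 12261 genes. With no minimum fold, 2760 of all genes had an unadjusted p under 0.05 in limma, both directions together. All genes were not counted at the unadjusted p of 0.01, so the counts at that threshold have no background beside them. Bmp8b was called in all alternatives tried. Of the 28 genes that the naming rule listed, 12 that were not called changed sign under a scaling and 20 with an array left out: those differences have no settled direction. The labels do not say that the replicate number pairs the pools, so the numbers were not taken as pairs. Deviations of same-numbered arrays from their group means correlated at r = 0.18 (replicate 1) and -0.14 (replicate 2). With 2 Flattop-negative arrays those deviations mirror each other, so these values cannot show or exclude pairing. Low signal limits the ligands most.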
